A study of Mus musculus with 7 samples.

Results

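The C/EBP transcription factor genes Cebpa, Cebpb, Cebpd, Cebpe and Cebpg, together with Gfi1 and Spi1, were followed in mouse femur after a brain injury. They were chosen by name from the table of raw counts, as 5 genes of the C/EBP family and 2 further regulators of granulocyte formation. All 7 were found among the 49671 genes of the table, and all 7 were among the 17144 genes tested. The femurs came from wild type mice. In one group (4 libraries) the bone was taken 3 days after a controlled cortical impact, a traumatic brain injury (TBI) made by driving a piston into the exposed brain. The other group (3 libraries) had the treatment label control. Age, sex and strain are not given in the labels, and whether the controls had the same head surgery is not given either. The whole bone was crushed, so each library mixed marrow, bone and any muscle or fat left on it.

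C/EBP proteins are leucine zipper factors that bind DNA as dimers and drive the differentiation of myeloid cells, fat cells and hepatocytes. In the marrow, PU.1 (encoded by Spi1) and C/EBPα open the myeloid programme in progenitors, GFI1 represses monocyte genes in the granulocyte branch, and C/EBPε switches on the genes of the secondary granules at the last divisions before neutrophils mature. C/EBPβ is known for granulocyte production under stress, when cytokines such as G-CSF call for more cells, and C/EBPδ and C/EBPγ act in inflammation and in the response to stress.

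Total counts per library ran from 15461528 to 21783534, and 22360 to 23424 genes were detected. The libraries of a group were far from alike. Genes of late neutrophils (17 listed genes such as Ltf, Camp and Ngp) took 0.373% to 0.612% of counts in the controls, against 1.5% in TBI 1, 0.955% in TBI 2, 0.237% in TBI 3 and 0.65% in TBI 4. Skeletal muscle genes took 1.7% to 5.41% of control counts and 2.06% to 8.79% of TBI counts, with TBI 3 and TBI 4 the highest. TBI 3 thus stood below every control for neutrophil genes, while the other TBI libraries stood above every control, and estimates without it are given for Cebpb, Cebpd, Cebpe, Gfi1, Spi1 and the granulocyte lists. Replicates carry numbers in the labels, and nothing there says that each was a separate mouse, so the p-values measure the spread between these libraries.

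None of the 7 genes passed the threshold (edgeR quasi-likelihood test, adjusted p under 0.05 over all genes tested). The same test called 0 of 17144 genes (0%), so the absence of calls is not particular to these 7. In counts simulated with the spread of these libraries, edgeR recovered 0 of 67 genes changed 1.5-fold and 14 of 67 changed 2-fold. All 7 had an estimate of 0 or above, with a median log2 fold change of 0.50, beside a median of 0.03 and 54.4% positive estimates over all genes tested. Cebpa alone had an unadjusted p under 0.05 in edgeR, where 2.37% of genes did so with a higher and 4.97% with a lower value after TBI. DESeq2 gave 0 calls among the 7 and 103 of 16809 over the table (0.613%). Its unadjusted p was under 0.05 for Cebpa, Cebpe and Gfi1, all higher, as for 3.1% of all genes. All 7 genes were measured in the same libraries, so they are not separate observations of the injury. Cebpe and Gfi1 also had the same order of libraries.

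**Figure D1:**
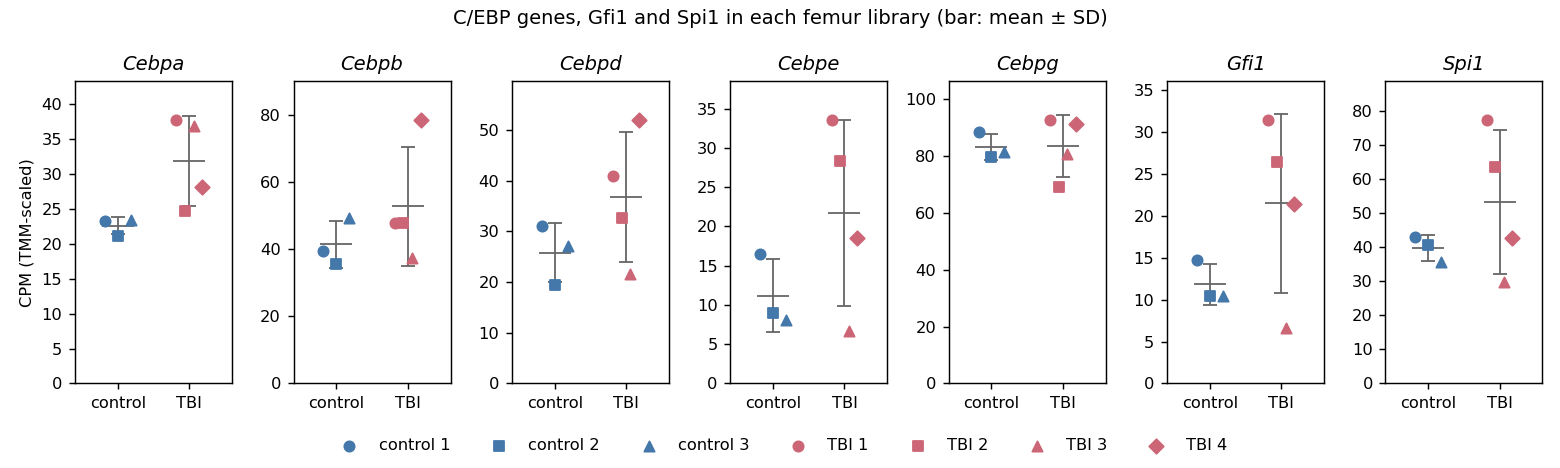
Counts scaled to a common library depth (CPM, with TMM factors) of the 7 genes, 1 panel each with its own axis from 0; points are single libraries and bars show the group mean ± SD (3 control and 4 TBI libraries). Only for Cebpa do all 4 TBI points lie above all control points, and for Cebpe, Gfi1 and Spi1 the TBI 3 point is the lowest of all.

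Per kilobase of exon, which allows genes to be compared with each other, Cebpb had the highest mean level in controls, at 27.6 ± 4.66 CPM per kilobase (SD, n = 3). Spi1 and Cebpg followed at 14.8 ± 1.43 and 14.8 ± 0.815, and these neighbours did not differ beyond their spread. Cebpe (9.01 ± 3.74), Cebpa (8.58 ± 0.469) and Cebpd (6.89 ± 1.58) formed a group with overlapping spreads. Gfi1 was lowest at 3.71 ± 0.775. After TBI the means were 35.1 ± 11.8 for Cebpb, 19.8 ± 7.82 for Spi1, 17.5 ± 9.54 for Cebpe, 14.9 ± 1.94 for Cebpg, 12.1 ± 2.43 for Cebpa, 9.83 ± 3.41 for Cebpd and 6.75 ± 3.35 for Gfi1 (SD, n = 4). Cebpe thus stood next to Cebpa in controls and next to Spi1 after TBI in the order of means, but its TBI libraries spanned a 5.02-fold range, and the spreads of Spi1, Cebpe, Cebpg and Cebpa overlapped.

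Cebpa, the factor that commits progenitors to the granulocyte and monocyte path, was higher in every TBI library than in any control. It measured 23.3, 21.2 and 23.4 CPM in controls 1 to 3, and 37.7, 24.7, 36.9 and 28.2 CPM in TBI 1 to 4. The groups did not overlap, although TBI 2 exceeded the highest control by little, and the controls were close together. The means were 22.6 ± 1.24 CPM (SD, n = 3) and 31.9 ± 6.39 CPM (SD, n = 4), a 1.41-fold difference (log2 fold change 0.50 ± 0.17, SE; edgeR unadjusted p = 0.0174, adjusted p = 0.592). Over all genes, 2.66% were separated in this way toward higher and 5.38% toward lower values, and by p Cebpa ranked 500 of 17144. The gene lies at chr7:35119293-35121928 on the plus strand (GRCm38; ENSMUSG00000034957) and has 1 exon.

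The order of libraries set Cebpa apart from the granulocyte genes. Its highest values were in TBI 1 and TBI 3, and TBI 3 had the fewest neutrophil transcripts of all. With the mean of the late neutrophil list as a covariate in the fit, its log2 fold change was 0.52 (edgeR unadjusted p = 0.019, adjusted p = 0.341). With the erythroid list mean as covariate it was 0.79 (edgeR unadjusted p = 0.0116, adjusted p = 0.336). That mean was 10.34 to 10.69 log2 CPM in controls and 9.68 to 10.22 after TBI. It separated the groups, so this fit could not well tell it from the injury. Without a covariate, leaving out any 1 library gave Cebpa values from 0.40 to 0.59. Cebpa is also a factor of fat cells. The 8 listed adipocyte genes averaged 4.31, 4.36 and 4.68 log2 CPM in the controls and 3.97, 4.70, 5.98 and 5.47 in TBI 1 to 4, and all 8 had a higher estimate after TBI. Adipoq, which encodes the fat cell hormone adiponectin, ran from 24.4 to 35.1 CPM in controls and from 32.8 to 59.3 CPM after TBI. Pparg, the fat cell master regulator, measured 7.81, 7.12 and 7.14 CPM in the controls and 8.65, 8.22, 10.9 and 9.96 CPM in TBI 1 to 4, so it was separated from the controls as Cebpa was. The 2 libraries with the most Cebpa were the lowest (TBI 1) and the highest (TBI 3) in adipocyte mean. With the adipocyte mean as a covariate (an alternative added after seeing the data), Cebpa stood at 0.50 (unadjusted p = 0.0172, adjusted p = 0.204). In whole bone, more cells of a type and more RNA per cell cannot be told apart, for this gene and for those below.

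Spi1, which encodes PU.1, the factor that all granulocytes, monocytes and B cells depend on, measured 43.1, 40.6 and 35.6 CPM in the controls and 77.2, 63.5, 29.9 and 42.7 CPM in TBI 1 to 4. TBI 1 and TBI 2 lay above every control, TBI 4 within the control range and TBI 3 below it, so the groups overlapped. The log2 fold change was 0.43 ± 0.29 (SE; edgeR adjusted p = 0.763), between means of 39.8 ± 3.84 (SD, n = 3) and 53.3 ± 21.1 CPM (SD, n = 4). It was 0.19 without TBI 1 and 0.62 without TBI 3. The gene spans chr2:91082390-91115756 on the plus strand (ENSMUSG00000002111).

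Gfi1, the zinc finger repressor needed for neutrophil formation, measured 14.7, 10.4 and 10.4 CPM in the controls and 31.4, 26.5, 6.67 and 21.4 CPM in TBI 1 to 4. TBI 1, 2 and 4 were above every control and TBI 3 was below every control. The means were 11.8 ± 2.47 (SD, n = 3) and 21.5 ± 10.7 CPM (SD, n = 4), with a log2 fold change of 0.86 ± 0.44 (SE; edgeR unadjusted p = 0.0838, adjusted p = 0.725). Without TBI 3 it was 1.16 (adjusted p = 0.366), and without TBI 1 it was 0.63. The gene lies at chr5:107716657-107726036 on the minus strand (ENSMUSG00000029275).

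Cebpe, the granulocyte-restricted member of the family, had the largest fitted difference of the 7. It measured 16.5, 9.02 and 8.03 CPM in the controls and 33.5, 28.4, 6.67 and 18.5 CPM in TBI 1 to 4. As for Gfi1, TBI 1, 2 and 4 exceeded every control and TBI 3 fell short of every control. The means were 11.2 ± 4.64 (SD, n = 3) and 21.8 ± 11.8 CPM (SD, n = 4), a 1.94-fold difference (log2 fold change 0.96 ± 0.50, SE; edgeR unadjusted p = 0.0888, adjusted p = 0.726). Without TBI 3 the estimate was 1.26, without control 1 it was 1.36 and without TBI 1 it was 0.68, each short of the threshold. Its counts were between 123 and 771 per library. The gene lies at chr14:54710360-54712174 on the minus strand (ENSMUSG00000052435).

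Stretches before the RefSeq starts of Gfi1 and of 3 granule genes are shown, because C/EBP, PU.1 and GFI1 proteins are known to act on granulocyte promoters. The granule genes Fcnb, Mmp8 and Ltf were chosen after their values and matches were seen, and in each, as in Gfi1, TBI 1, 2 and 4 lay above and TBI 3 below every control. Sequences are RefSeq promoters on GRCm38.p6, written 5′ to 3′ on the strand of the gene. Each is the longest run of the 250 bases before the start that holds no GENCODE exon of the gene. Capitals mark matches to TTGCNNAA (a C/EBP motif), GAGGAA (a PU.1 motif) or AAATCAC (a GFI1 motif), searched on both strands, and no matches overlapped in these 4 stretches. Fcnb encodes a ficolin of primary granule stage cells, Mmp8 a neutrophil collagenase and Ltf the iron-binding lactoferrin of secondary granules.
Gfi1, chr5:107725806-107725954, minus strand: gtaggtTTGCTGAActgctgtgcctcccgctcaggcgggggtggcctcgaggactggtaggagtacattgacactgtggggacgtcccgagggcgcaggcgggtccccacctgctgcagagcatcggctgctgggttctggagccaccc
Fcnb, chr2:28084886-28085128, minus strand: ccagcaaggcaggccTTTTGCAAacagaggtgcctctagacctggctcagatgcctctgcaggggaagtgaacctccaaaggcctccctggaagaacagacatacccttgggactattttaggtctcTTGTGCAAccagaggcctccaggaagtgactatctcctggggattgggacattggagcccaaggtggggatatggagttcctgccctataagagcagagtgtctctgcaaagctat
Mmp8, chr9:7558179-7558428, plus strand: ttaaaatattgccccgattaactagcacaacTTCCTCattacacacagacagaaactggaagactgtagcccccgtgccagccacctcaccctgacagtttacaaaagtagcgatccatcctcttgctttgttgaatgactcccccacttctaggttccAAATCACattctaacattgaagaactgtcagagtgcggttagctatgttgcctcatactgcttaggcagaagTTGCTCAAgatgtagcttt
Ltf, chr9:111019042-111019270, plus strand: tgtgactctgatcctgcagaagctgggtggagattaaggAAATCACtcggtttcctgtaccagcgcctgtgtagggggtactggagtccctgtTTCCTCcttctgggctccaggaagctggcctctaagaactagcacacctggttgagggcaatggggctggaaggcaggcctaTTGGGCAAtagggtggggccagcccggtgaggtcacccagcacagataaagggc

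Gfi1 had 1 C/EBP match, which began 143 bases before the RefSeq start at 107725805, and its other RefSeq start (107724343) had 0 matches of any kind. GENCODE holds a further Gfi1 transcript that starts at 107726036, the end of the gene given above, so this match lies inside that longer model. Fcnb had C/EBP matches 235 and 123 bases before the start. Mmp8 and Ltf held all 3 motifs, with the C/EBP match at 19, GFI1 at 91 and PU.1 at 219 in Mmp8, and at 75, 211 and 157 in Ltf. A C/EBP match stood in 9.56% of the 32851 RefSeq windows of this length, a PU.1 match in 23.3% and a GFI1 match in 2.75%. Among the late neutrophil genes with a window (16 of 17, with 12 of their 17 windows reaching into a GENCODE exon of the gene), 7 had a C/EBP match and 10 a PU.1 match. Of the 7 primary granule genes, 1 had a C/EBP match and 5 a PU.1 match. Among the factors themselves, windows were at hand for Cebpa, Cebpb, Cebpg and Gfi1, and only that of Gfi1 held a match. A match describes the letters of the window and does not show binding.

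Cebpb, known for granulocyte production under stress, measured 39.5, 35.7 and 49.3 CPM in the controls and 47.8, 47.8, 37.3 and 78.3 CPM in TBI 1 to 4. Only TBI 4 was above the highest control, and the other TBI libraries lay within the control range. The log2 fold change was 0.35 ± 0.24 (SE; edgeR adjusted p = 0.763), and it was 0.09 without TBI 4 and 0.48 without TBI 3. Cebpd, an inflammation-induced member, measured 31, 19.4 and 27.1 CPM in the controls and 41, 32.7, 21.7 and 51.9 CPM after TBI. TBI 1, 2 and 4 exceeded the controls, with TBI 4 highest as for Cebpb, and TBI 3 lay within their range. Its log2 fold change was 0.51 ± 0.29 (SE; edgeR adjusted p = 0.738), 0.30 without TBI 4 and 0.69 without TBI 3. TBI 4 was also the library with the most muscle transcripts (8.79% of counts), and with the mean of the muscle list in the fit Cebpb stood at 0.23 and Cebpd at 0.52. Cebpb (chr2:167688915-167690418, plus strand; ENSMUSG00000056501) and Cebpd (chr16:15887286-15891031, plus strand; ENSMUSG00000071637) share exon bases with opposite-strand genes. Tmem189 had 511 to 862 counts and Spidr 255 to 487 counts per library. The use of strand in counting is not stated, so a part of these reads may not be told apart.

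Cebpg, which encodes a short family member that lacks an activation domain and pairs with other bZIP factors, had the estimate nearest 0. It measured 88.5, 79.8 and 81.6 CPM in the controls and 92.6, 69.3, 80.8 and 91.4 CPM in TBI 1 to 4. TBI 1 and TBI 4 were the highest libraries and TBI 2 the lowest, with the controls in between. The log2 fold change was 0.00 ± 0.13 (SE; edgeR adjusted p = 0.996). It varied least of the 7, by 1.34-fold over all libraries, against 1.78-fold for Cebpa, 2.19-fold for Cebpb, 2.58-fold for Spi1, 2.68-fold for Cebpd, 4.7-fold for Gfi1 and 5.02-fold for Cebpe. The gene lies at chr7:35046422-35056573 on the minus strand (ENSMUSG00000056216), on the same chromosome as Cebpa.

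C/EBP proteins pair with each other, so the make-up of the family's mRNA was also compared. The 5 C/EBP genes summed to 72.4, 58.4 and 69.9 CPM per kilobase in the controls and to 100.5, 85.1, 64.3 and 107.8 in TBI 1 to 4. Again TBI 3 lay within the control range and the other TBI libraries above it (66.9 ± 7.45, SD, n = 3, against 89.4 ± 19.2, SD, n = 4; two-sided exact permutation p = 0.171, with 0.0571 the smallest that this design allows). Without TBI 3 the TBI mean was 97.8 ± 11.6 (SD, n = 3). Cebpb made up the largest share in every library, 36.3% to 46.9% in controls and 31.6% to 48.3% after TBI. Cebpe made up 18.4%, 12.4% and 9.26% in the controls and 26.9%, 26.9%, 8.36% and 13.8% after TBI. In TBI 1 and TBI 2 it was second to Cebpb, ahead of Cebpg, whose share was 22.3% ± 1.82 in controls (SD, n = 3) against 17.1% ± 3.61 in the injured group (SD, n = 4). Cebpa took 12.2% to 13.8% in controls and 21.7% in TBI 3, its highest share. For all 5 shares the groups overlapped (two-sided exact permutation p from 0.171 to 0.914, adjusted p from 0.857 to 0.914). Since no p below 0.0571 was possible, these tests could not have passed the threshold and do not decide whether the shares differed.

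**Figure D2:**
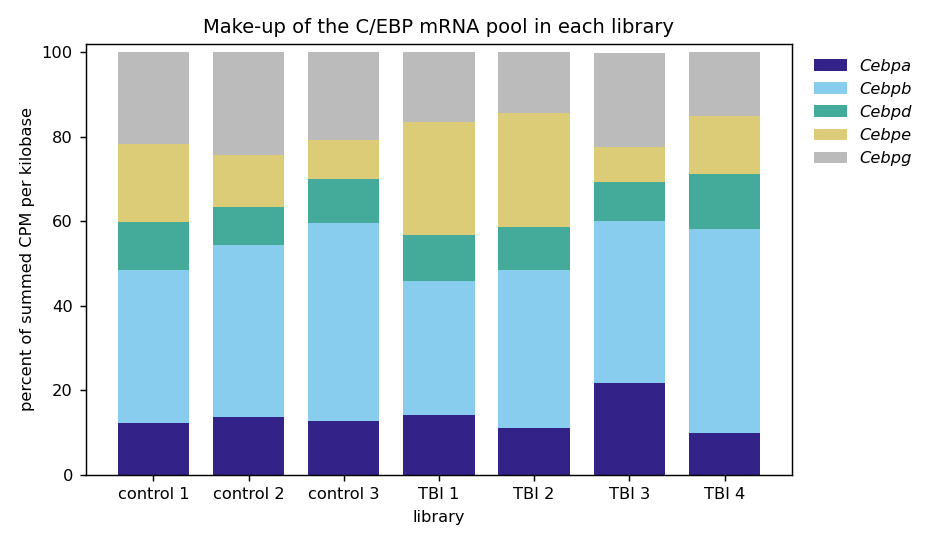
Stacked bars of the percent that each of the 5 C/EBP genes contributed to their summed CPM per kilobase of exon, 1 bar per library. The Cebpe segment is widest in TBI 1 and TBI 2 (26.9% each) and the Cebpa segment in TBI 3 (21.7%).

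The balance between pairs of factors spread widely within the TBI group. On the scale of log2 counts, Cebpb minus Cebpa was 0.76, 0.75 and 1.08 in the controls and 0.34, 0.95, 0.01 and 1.47 after TBI. Cebpe minus Cebpa was −0.50, −1.23 and −1.54 in the controls and −0.17, 0.20, −2.47 and −0.61 after TBI, so TBI 2 and TBI 3 held the extremes. Gfi1 minus Spi1 was −1.56, −1.96 and −1.78 in the controls and −1.30, −1.26, −2.17 and −0.99 after TBI. In 3 of the 4 TBI libraries this last difference was above every control, and in TBI 3 it was below. For all 3 differences the groups overlapped (two-sided exact permutation p = 0.629, 0.686 and 0.343, adjusted p = 0.686 for each of the 3). With 0.0571 the smallest p possible in this design, the test could not have passed the threshold and decides nothing here.

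The 7 genes were then set against the late neutrophil list of the same library. Relative to that list's mean log2 CPM, Cebpe was at −2.92, −3.14 and −3.30 in the controls and −3.24, −2.72, −3.03 and −3.15 in TBI 1 to 4. Gfi1 was at −3.09, −2.94 and −2.93 in the controls and −3.34, −2.82, −3.03 and −2.93 after TBI. The groups overlapped for both, and both held within a narrow band, with a range of 0.57 for Cebpe and 0.52 for Gfi1 over the 7 libraries, while their own log2 CPM ranged over 2.31 and 2.22 and the list mean over 2.53. Relative to this list Cebpe and Gfi1 thus varied less than any other of the 7 genes, and for both TBI 3 lay between the extremes. For Spi1 the range relative to the list was 1.17, for Cebpd 1.62, for Cebpb 2.17, for Cebpg 2.33 and for Cebpa 2.50. Cebpa was at −2.43, −1.92 and −1.77 in the controls and −3.08, −2.92, −0.58 and −2.54 after TBI, with TBI 3 far above the rest. In this measure the groups overlapped for all 7 (two-sided exact permutation p from 0.343 to 0.914, adjusted p = 0.914 for each). The smallest p that this design allows is 0.0571, above the threshold. The permutation test could therefore not decide whether the groups differed.

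**Figure D3:**
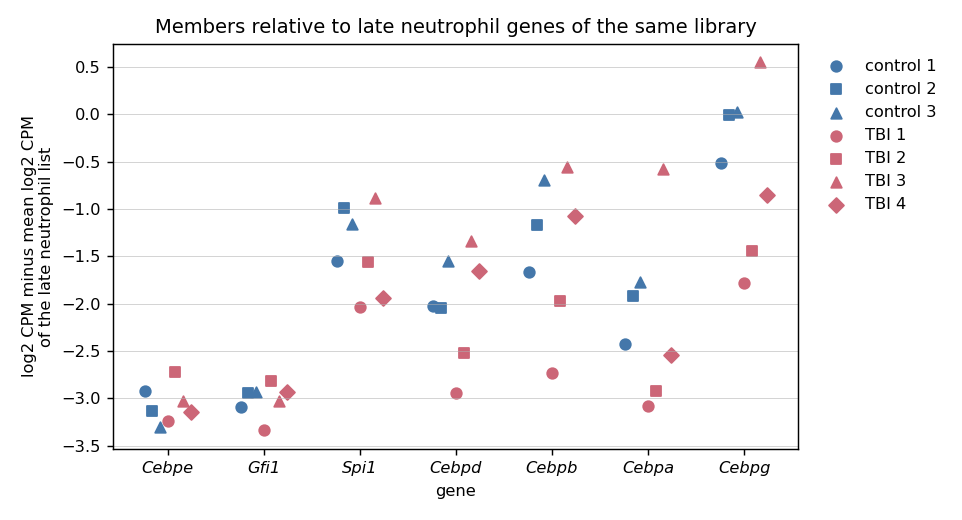
Log2 CPM of each gene minus the mean log2 CPM of the late neutrophil list in the same library (vertical axis), for the 7 genes; symbols are single libraries. Cebpe and Gfi1 stay within 0.57 and 0.52 of log2 over all 7 libraries, whereas Cebpa and Cebpg spread over 2.50 and 2.33.

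With that list mean as a covariate, the fitted log2 fold change of Cebpe was 0.09, that of Gfi1 0.04 and that of Spi1 −0.03, against 0.96, 0.86 and 0.43 without it. Cebpd went to 0.20, Cebpb to 0.23 and Cebpg to −0.04, and Cebpa stayed at 0.52. Other covariates moved Cebpe, Gfi1 and Spi1 the other way. With the muscle list mean they stood at 1.29, 1.08 and 0.60 (edgeR adjusted p = 0.0817, 0.135 and 0.107), and with the erythroid list mean at 1.83, 1.30 and 0.93 (adjusted p = 0.355, 0.421 and 0.371). The erythroid mean was lower in every TBI library than in any control, so that fit could not well tell it from the injury. The SE of Cebpe rose from 0.50 to 0.75 in it. With the adipocyte list mean, the alternative that was added later, Cebpe stood at 1.41 (edgeR adjusted p = 0.0471), Spi1 at 0.73 (adjusted p = 0.0284) and Gfi1 at 1.24 (adjusted p = 0.0622). That fit called 252 genes over the table (1.47%), and without the covariate the same test called 0. TBI 3, the library with the most adipocyte transcripts, was also the one with the fewest neutrophil transcripts.

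**Figure D4:**
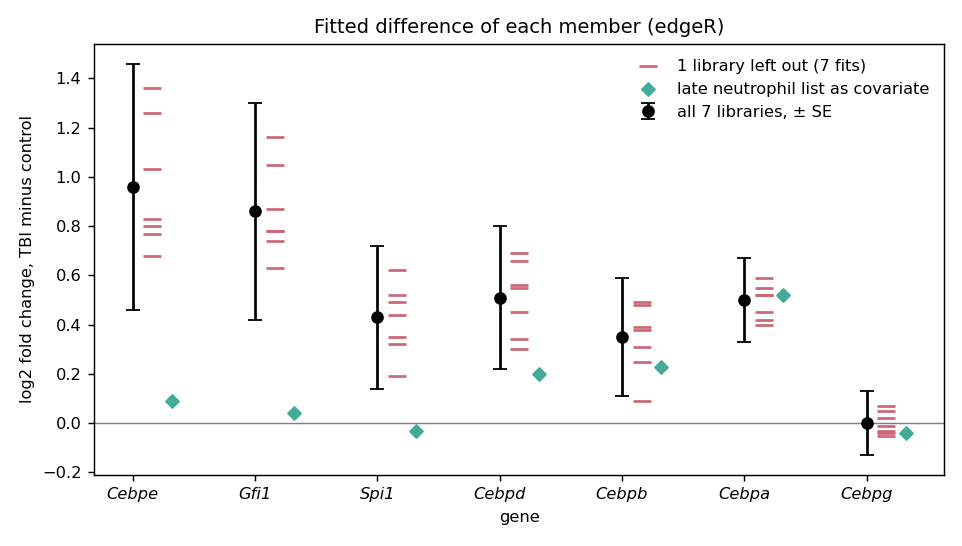
Fitted log2 fold change (TBI minus control, vertical axis) of the 7 genes in edgeR: black points with SE bars from all 7 libraries, red dashes from the 7 fits with 1 library left out, green diamonds with the late neutrophil list as a covariate. With the covariate Cebpe, Gfi1 and Spi1 are near 0 (0.09, 0.04 and −0.03) and Cebpa is at 0.52.

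The genes of the surrounding pathway were taken from 8 lists of roles and targets, and edgeR and DESeq2 each called 0 genes in all 8. Over all genes tested edgeR called 0% and DESeq2 0.613%, so the 0 calls are not particular to these lists. Upstream, 18 of 22 cytokine, receptor and STAT genes could be tested, of which 13 had a higher and 5 a lower estimate, with a median log2 fold change of 0.12. Csf3, which encodes G-CSF, the main cytokine of granulocyte production, was at 0 CPM in the 3 controls, TBI 1 and TBI 4, and at 0.046 and 0.0977 CPM in TBI 2 and TBI 3. Csf3 and the cytokine genes Csf2, Il6 and Il3 were too low to test. The 3 smallest p-values belonged to Csf2rb, the shared β chain of the GM-CSF receptor (log2 fold change 0.63 ± 0.30, SE), the FLT3 ligand gene Flt3l (−0.29 ± 0.14) and Csf2rb2, a second β chain (0.39 ± 0.20). Csf2rb was highest in TBI 1 and TBI 2, at 70 and 47.6 CPM against 25.6 to 34.3 in the controls, and TBI 3 was at 25.4.

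Of the 14 other C/EBP-related bZIP genes and C/EBP regulators, 9 had a higher and 5 a lower estimate (median 0.08). Trib2, an adaptor known to send C/EBPα for degradation, measured 29.9, 34 and 33.5 CPM in the controls and 20, 21.8, 25.2 and 24 CPM in TBI 1 to 4. Every TBI library was below every control, as for 5.38% of all genes tested. The log2 fold change of Trib2 was −0.51 ± 0.12 (SE; edgeR unadjusted p = 0.00253, adjusted p = 0.423). Trib1 (0.27 ± 0.26) and Trib3 (0.98 ± 0.68), of the same gene family, had higher estimates and overlapping groups. C/EBPα protein was not measured. Nfil3, a bZIP repressor, was at 0.62 ± 0.30 and the stress-induced Atf3 at 0.67 ± 0.36. Both had their highest value in TBI 4, as Cebpb and Cebpd did, at 19 CPM for Nfil3 against 6.93 to 8.12 in controls, and at 15.4 CPM for Atf3 against 4.79 to 8.03. Among 26 other myeloid fate factors, 15 were higher and 11 lower (median 0.02). The smallest p-values there were those of Egr1 (−0.58 ± 0.24), its corepressor Nab2 (−0.47 ± 0.20) and Egr2 (−0.52 ± 0.25), a set of genes tied to the monocyte branch that GFI1 opposes. Egr1 and Nab2 had an unadjusted p of 0.0428 and 0.0432 (edgeR; adjusted p = 0.67 for both), and their groups overlapped.

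Among target genes, the 7 primary granule genes, which C/EBPα and PU.1 are known to drive, all had a higher estimate (median 0.93, 0.64 without TBI 1 and 1.22 without TBI 3). Ctsc, the protease that activates the granule serine proteases, measured 41, 41.2 and 39.6 CPM in the controls and 77.8, 58.6, 50.6 and 51.6 CPM in TBI 1 to 4. Like Cebpa, and unlike the other 6 of its list, it was above every control in all 4 TBI libraries (log2 fold change 0.56 ± 0.16, SE; edgeR unadjusted p = 0.00798, adjusted p = 0.514). Prtn3 and Elane, serine proteases of the same granules, were at 0.93 ± 0.41 and 0.94 ± 0.44, with TBI 3 below every control at 66.5 and 63.2 CPM. Of the 17 late neutrophil genes, known targets of C/EBPε among them, 16 were higher and 1 lower (median 0.99, 0.60 without TBI 1 and 1.29 without TBI 3). Ly6g, Mmp8 and Chil3 had the smallest p-values there. Ly6g, a neutrophil surface marker, measured 15.8, 10.3 and 9.85 CPM in the controls and 45.2, 27.8, 7.27 and 26.9 CPM in TBI 1 to 4, the same 3 libraries above and TBI 3 below. The collagenase gene Mmp8 was at 1.18 ± 0.55 and Chil3 at 1.09 ± 0.51. The lower gene was Mmp9, at −0.27 ± 0.26, which osteoclasts also express.

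Of 16 PU.1 target genes, 15 were higher (median 0.53, 0.27 without TBI 1 and 0.75 without TBI 3), with the Fc receptor gene Fcgr1 (1.16 ± 0.51), the oxidase subunit gene Cybb (0.86 ± 0.42) and the integrin gene Itgam (0.80 ± 0.41) foremost by p. The exception was Csf1r, the receptor of the macrophage growth factor, at −0.12 ± 0.22. The 7 genes that GFI1 is known to repress split into 4 higher and 3 lower (median 0.10), and none had an unadjusted p under 0.05. Csf1, the macrophage growth factor gene, was at −0.33 ± 0.18 and Id2, an inhibitor of helix-loop-helix factors, at 0.25 ± 0.23. Of 13 genes of the amino acid stress response that ATF4 and C/EBPγ share, 9 were higher and 4 lower (median 0.17). Shmt2 (0.31 ± 0.18), Slc7a11 (1.09 ± 0.66) and Trib3 (0.98 ± 0.68) had the smallest p-values, and Shmt2 was highest in TBI 1, at 116.1 CPM against 64 to 77.5 in the controls. The members of each list come from overlapping cell types in the same 7 libraries and are not independent observations.

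**Figure D5:**
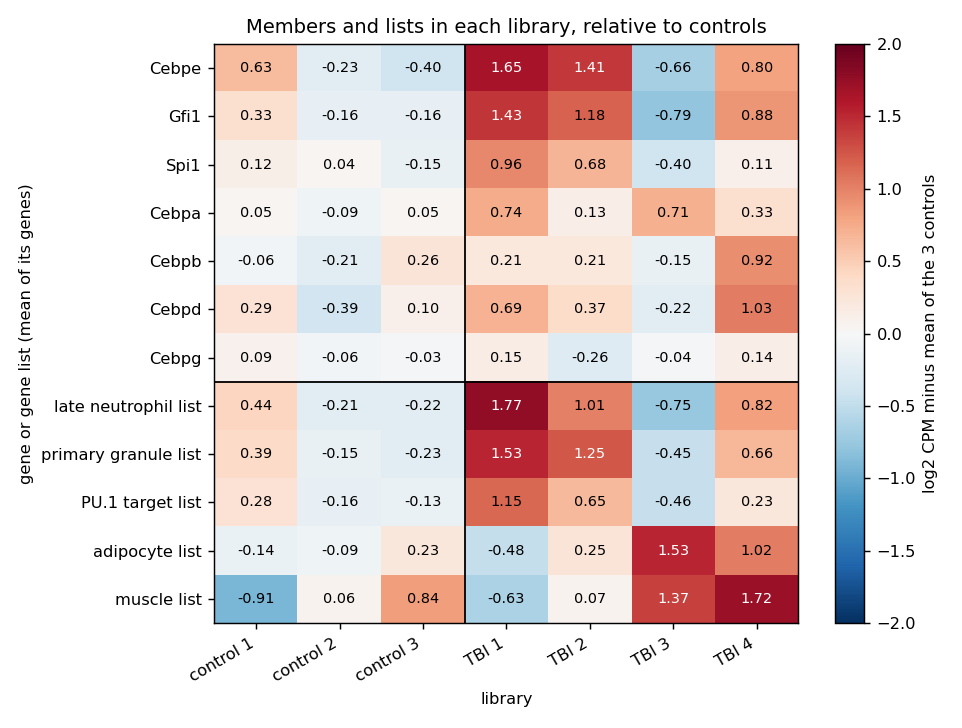
Colour and number give the log2 CPM of each gene, or the mean log2 CPM of a list's genes, minus the mean of the 3 controls, for 7 genes and 5 lists (rows) in each library (columns). Cebpe, Gfi1 and Spi1 share the pattern of the neutrophil and PU.1 lists, with TBI 1 highest and TBI 3 lowest, while Cebpa is high in TBI 1 and TBI 3 and the adipocyte and muscle lists are high in TBI 3 and TBI 4.

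The genes whose log2 CPM followed each factor most closely over the 7 libraries were sought among 9903 protein-coding genes with a mean of at least 10 CPM. For Gfi1 they were the late granule genes Pglyrp1 (Pearson r = 0.996, Spearman rho = 0.964) and Camp (r = 0.995, rho = 0.964) and the ficolin gene Fcnb (r = 0.993, rho = 0.964). For Cebpe they were Arrb2, an arrestin (r = 0.995, rho = 1), the leukotriene enzyme gene Lta4h (r = 0.994, rho = 1) and Ms4a3, a marker of granulocyte and monocyte progenitors (r = 0.994, rho = 0.964). For Spi1 they were Arhgap9 (r = 0.993), Adap1 (r = 0.991) and the pore-forming gasdermin gene Gsdmd (r = 0.988). All 3 genes nearest to Gfi1 and 1 of the 3 nearest to Cebpe (Ms4a3) were on the 2 neutrophil lists, and none of those nearest to the other 5 factors was. For Cebpa they were Zfp120 (r = 0.951), Ralgapa2 (r = 0.941) and Vps35l (r = 0.936), for Cebpb Zfp51, Pigu and Stim2 (r from 0.950 to 0.971), for Cebpd Rhob, Tmx3 and Tcof1 (r from 0.951 to 0.959), and for Cebpg Lrrc58, Edem3 and Trpm7 (r from 0.960 to 0.971). These are the highest of 9903 coefficients over 7 points that share the group difference, so they describe likeness in these libraries and carry no test.

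Markers of other cells that could carry these mRNAs also differed between libraries. The 12 monocyte and macrophage genes averaged 4.68 to 4.96 log2 CPM in controls and 4.44 to 5.37 after TBI, with TBI 1 highest, and 9 of 12 had a higher estimate (median 0.10). Estimates were lower for all 9 erythroid genes (median −0.41), all 7 B cell genes (median −0.74) and all 8 osteoblast genes (median −0.74). DESeq2 called 4 erythroid and 4 osteoblast genes, against 0.613% of all genes. Of 7 osteoclast genes, 6 had a lower estimate (median −0.51). An unadjusted p under 0.05 in edgeR with a lower value was found for 8 osteoblast, 5 erythroid, 4 osteoclast and 0 B cell genes. Over all genes tested that share was 4.97%. The stem and early progenitor list was even, with 4 of 8 genes higher (median −0.05). Eosinophil genes, which Cebpe also serves, averaged 0.37 to 1.33 log2 CPM in controls and 0.64 to 1.30 after TBI. None of the tested markers was at 0 counts in any library. Mitochondrial transcripts took 5.03% to 8.03% of control counts and 5% to 10.4% of TBI counts. The part of these cells in the differences of the 7 genes was not tested beyond the covariate fits given above.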

How the data were processed

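RNA from 7 whole femurs (3 control, 4 TBI) was sequenced as stranded mRNA libraries, as the labels' protocols state. The authors deposited raw counts per Ensembl gene (49671 genes) and a log2 table of 18549 genes with a floor of 4.21. The submitters' processing notes name STAR, DESeq and GRCm38 without versions, and the sources used here do not give the counting rules or their use of strand. All tests used the counts. In the deposited log2 table the 7 genes differed between groups by 0.00 to 0.73, with the same order of size at the top (Cebpe, then Gfi1).

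GENCODE M21 (GRCm38) matched 49412 identifiers (99.5%) and gave coordinates and exon lengths. Counts were filtered with filterByExpr (17144 genes kept), scaled by TMM and tested with edgeR 4.0.16 (quasi-likelihood F-test, R 4.3.3) with Benjamini-Hochberg adjustment at 0.05 over all genes. Fold changes are TBI minus control. Log2 CPM used a prior count of 2. DESeq2 1.42.0, limma 3.58.1 (voom), other scalings and filters, covariates and left-out libraries were alternatives, and DESeq2 gave no adjusted p for 335 genes. Shares and ratios were tested by exact permutation of the group labels (two-sided, 35 arrangements). Procedures were tested on simulated counts.

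The 7 genes and all lists were chosen with earlier results of these data known. Named were the 7 genes, in each list of roles or targets any gene past the threshold and the 3 with the smallest p, the 3 genes most like each of the 7, and markers of other cells that moved with them. A gene that this rule names is not reported here. Others (Csf3, Csf1r, Mmp9, Trib1 and the promoters of Fcnb, Mmp8 and Ltf) were picked with their values in view. Promoters came from RefSeq (GRCm38.p6) for 4 of the 7 genes.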

Additional observations from a re-analysis of the deposited data

Results flagged for a closer look

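The mean of the 13 genes of the ATF4 and C/EBPγ stress response was 5.28 log2 CPM in TBI 1, far from 4.49, 4.52 and 4.45 in TBI 2 to 4, and from 4.60, 4.41 and 4.48 in the controls. The gap to the nearest TBI library was 0.917 of the group's range, above the 95% limit of Dixon's test for 4 samples. Among 41 groups of 4 checked this was the only one, and chance alone puts about 1 in 20 past that limit. Cebpg itself was at 92.6 CPM in TBI 1 and 91.4 CPM in TBI 4, and without TBI 1 the median log2 fold change of the list was 0.03 in place of 0.17. Whether TBI 1 differs for a technical reason was not tested.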

How the results depend on the processing

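None of the 7 genes passed in any of the settings tried, which were other scalings and filters, DESeq2, limma-voom, a threshold of 0.1, the replicate block, the late neutrophil, muscle and erythroid covariates and each library left out, except the adipocyte covariate, added after seeing the data. With it 2 genes passed, Cebpe (log2 fold change 1.41) and Spi1 (0.73). Over all genes 0 were called in every setting except DESeq2 (103) and the adipocyte covariate (252). The cause was not tested. Deviations of same-numbered control and TBI libraries correlated at 0.55, −0.03 and 0.32, and those of differently numbered libraries at −0.45 to 0.39. So few coefficients cannot decide whether the numbers pair the libraries. With the replicate block the estimates were 0.53 for Cebpa, 0.10 for Cebpb, 0.28 for Cebpd, 0.85 for Cebpe, −0.05 for Cebpg, 0.66 for Gfi1 and 0.42 for Spi1, with 0 called.

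Cebpg, at 0.00, changed sign with upper quartile scaling (−0.04), no filter (0.00), limma-voom (0.00, and −0.05 with quality weights), the late neutrophil covariate (−0.04) and left-out libraries (−0.05 to 0.07). Spi1 did so with the late neutrophil covariate (−0.03) and Cebpb with the erythroid covariate (−0.24), whose mean separated the groups. With 1 library left out, the difference in share ran from −1.15 to 2.79 percentage points for Cebpa, −5.45 to 0.48 for Cebpb and −0.15 to 1.16 for Cebpd. Shares by counts gave 0.48 for Cebpb, and without Cebpg in the sum Cebpd was at −0.17. The difference in Cebpb minus Cebpa ran from −0.43 to 0.06. Relative to neutrophil genes, left-out libraries gave −0.80 to 0.03 for Cebpa, −0.50 to 0.04 for Cebpd, −0.02 to 0.19 for Cebpe and −0.11 to 0.06 for Gfi1, and relative to PU.1 targets Cebpa was at 0.07, Cebpd at 0.07 and Gfi1 at 0.27. None of these passed a test. With 3 and 4 libraries the exact permutation p could not go below 0.0571, and with 1 library left out its lowest possible value was higher still. The permutation tests could therefore not have reached 0.05.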
